A study of Carassius auratus with 6 samples.

Results

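Complex I, NADH:ubiquinone oxidoreductase, is the entry point for NADH electrons into the respiratory chain of mitochondria. Its nuclear genes were followed in the liver of wild-type crucian carp (Carassius auratus in the labels) that had been under hypoxia stress for 12 h, against control fish, with 3 libraries per group. The oxygen level is not in the labels, and the labels number the replicates without saying that each is a separate animal, so p-values measure the spread between these libraries. Members were all rows of the deposited gene table whose gene name starts with nduf, ignoring case, or whose description starts with NADH dehydrogenase [ubiquinone]. The rule found 101 of 47544 rows, carrying 47 gene names. Of these, 83 rows were copies of 37 subunit genes, 14 were copies of 8 assembly factor genes of the NDUFAF group, and 4 were copies of NDUFA4 and NDUFA4L2, which are kept apart because NDUFA4 is now counted as a subunit of cytochrome c oxidase. Crucian carp and goldfish carry duplicated genomes, so most genes have several copies, and each copy is given by its name and identifier.

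Complex I is L-shaped. Its peripheral arm reaches into the mitochondrial matrix, takes electrons from NADH through a flavin and passes them along iron-sulfur clusters to ubiquinone, and its membrane arm pumps protons. The catalytic core is shared with bacteria and is split between nuclear genes, which encode the peripheral arm, and the ND genes of the mitochondrial genome, which encode the membrane arm. Accessory subunits surround the core, and assembly factors help to build the complex without staying in it. In liver, complex I oxidises NADH from the breakdown of fat, sugar and amino acids, and oxygen is the final acceptor of its electrons.

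Levels below are normalized counts, that is, reads per copy divided by a size factor per library. They are not divided by transcript length, so they are compared between libraries and not between genes. Each change is the hypoxia level minus the control level, both as log2 of the normalized count plus 1, given ± SE, from limma's moderated test with Benjamini-Hochberg adjustment over all 41045 tested genes, and "rose" and "fell" mean an adjusted p under 0.05. Libraries held between 15734847 and 22782649 reads. Hepatocyte markers (18 rows) summed to between 1149686 and 2407340 in hypoxia libraries and between 1521076 and 2449233 in controls, and the lowest was hypoxia replicate 2. Of 17 tested hepatocyte rows 3 fell and 0 rose (0.417% and 1.83% of all tested genes), with a median change of -0.18. DESeq2 and edgeR each called 3 hepatocyte rows lower (2.59% and 0.404% of all tested genes) and 0 higher (4.07% and 1.51%). Groups did not overlap in the lower direction for 5 of the 17 and in the higher for 0 (12.2% and 12.4% of all tested genes). Endothelial markers (13 rows) summed to 955 to 1923 in hypoxia libraries and 653 to 750 in controls, and 2 of 13 rose (1.83% of all tested genes). Groups did not overlap in the higher direction for 7 of the 13 and in the lower for 0 (12.4% and 12.2% of all tested genes). DESeq2 called 5 endothelial rows higher (4.07% of all tested genes) and edgeR 2 (1.51%). Exocrine pancreas markers (23 rows) ranged from 43059 to 133747 in hypoxia libraries and from 289 to 92755 in controls, the lowest being control replicate 2. Erythrocyte markers (24 rows) summed to 2522 to 15322 in hypoxia libraries and 1525 to 6540 in controls, and leukocyte markers (19 rows) to 25897 to 35800 in hypoxia libraries and 28031 to 58750 in controls. The leukocyte sums overlapped between groups, while 12 of 16 tested leukocyte rows had a change above 0, with a median of 1.12. Groups did not overlap in the higher direction for 2 of these 16 rows and in the lower for 2 (12.4% and 12.2% of all tested genes). At an unadjusted p under 0.05, 10 leukocyte rows were higher and 0 lower (10.2% and 8.41% of all tested genes). Limma and edgeR called 0 (1.83% and 1.51% of all tested genes rose), and DESeq2 called 2 higher (4.07% of all tested genes). Skeletal muscle markers (11 rows) stayed at 9.76 to 29.5 in hypoxia libraries and 17.02 to 35.8 in controls. None of the rows in these 6 lists was at 0 in all libraries. In bulk tissue, fewer cells of a type and less RNA per cell cannot be told apart, and the part of cell makeup in the results below was not tested.

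Subunit transcripts were lower after hypoxia almost throughout the complex, though few single copies passed the threshold by limma. Of the 83 subunit copies 80 were tested, and 75 of them had a change below 0, against 49.8% of all tested genes. Their median change was -0.75, with quartiles of -0.97 and -0.48, and the median over all tested genes was 0.00. For 55 of the 80 copies every hypoxia library lay below every control library, against 12.2% of all tested genes, and for 0 copies the reverse was seen, against 12.4%. Past the threshold, 3 copies fell (0.417% of all tested genes did) and 0 rose (1.83% of all tested genes did). At an unadjusted p under 0.05, 49 subunit copies were lower, against 8.41% of all tested genes, and 0 were higher, against 10.2%. On the recovered reads, edgeR called 0 subunit copies in either direction (0.404% of all tested genes fell and 1.51% rose). DESeq2 called 21 lower (2.59% of all tested genes) and 0 higher (4.07%). Quantile normalization gave 7 fallen copies (0.668% of all tested genes), and limma without a trend and with a replicate block gave 0 (0.134% and 0.149%). The authors' deposited table lists 17 of the 83 subunit copies with an adjusted p under 0.05, all of them lower, against 2.06% of its 47544 genes listed as lower and 3.43% as higher.

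The size of the difference was similar in hypoxia replicates 1 and 3 and larger in hypoxia replicate 2. Taken as log2 ratios to the control mean, the 80 tested subunit copies had a median of -0.61 in hypoxia replicate 1, -1.12 in hypoxia replicate 2 and -0.55 in hypoxia replicate 3, against -0.17, 0.09 and 0.01 in control replicates 1 to 3. Over all tested genes the same medians lay between -0.12 and -0.05 in hypoxia libraries and between -0.06 and -0.04 in controls. These ratios depend on the size factors, which were 0.85, 1.31 and 1.23 for hypoxia replicates 1 to 3. The same libraries held 16939689, 17411676 and 22782649 reads, so hypoxia replicate 2 had the largest divisor without the most reads. The part of this scaling in its lower values was not tested. Hypoxia replicate 2 gave the lowest of the 3 hypoxia values for 69 of the 80 copies, and it was also the library with the lowest sum of hepatocyte markers. Without it the median change of the subunit copies was -0.55. In hypoxia replicates 1 and 3 the hepatocyte sums, at 2407340 and 2293301, were within the range of the controls. Such sums are set mostly by the rows with most counts, so they do not show that hepatocyte signal was unchanged. Groups did not overlap in the lower direction for 5 of the 17 tested hepatocyte rows (12.2% of all tested genes). In the higher direction this held for 0 (12.4% of all tested genes). The part of hepatocyte content in these differences was not tested.

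**Figure D1:**
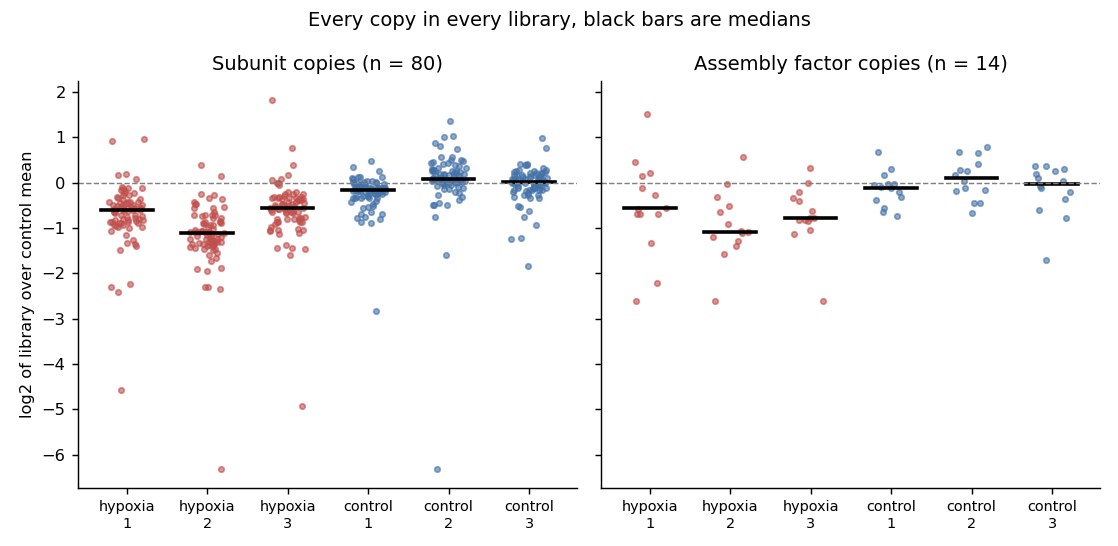
Log2 ratio of each tested copy in each library to its control mean, for 80 subunit copies and 14 assembly factor copies, with 3 hypoxia libraries (red) left of 3 control libraries (blue). Black bars are medians, which for subunits were -0.61, -1.12 and -0.55 in hypoxia libraries against -0.17, 0.09 and 0.01 in controls.

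Every role in the complex had a median change below 0. The median change was -0.61 over 18 copies of the nuclear core, -0.74 over 19 accessory copies of the peripheral arm, -0.84 over 20 tested accessory copies of the membrane arm, -0.74 over 19 tested beta subunit copies and -0.81 over 4 copies of NDUFAB1. Copies below all controls in every hypoxia library numbered 12 of 18, 11 of 19, 14 of 20, 15 of 19 and 3 of 4 in the same order, against 12.2% of all tested genes. Differences between roles were not tested.

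**Figure D2:**
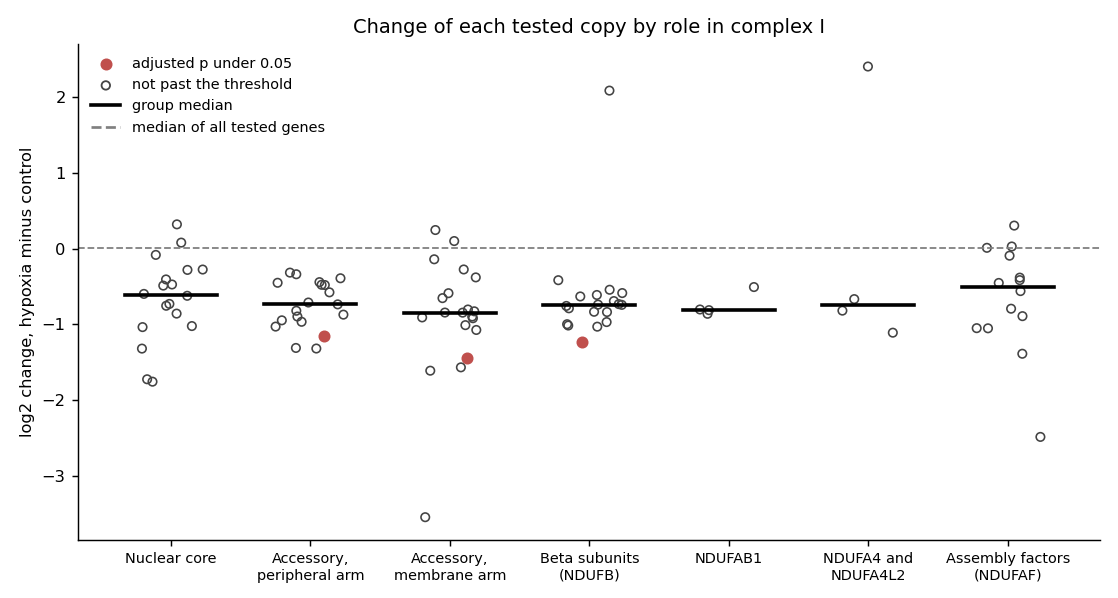
Log2 change (hypoxia minus control) of each tested copy, grouped by role in complex I. Filled red points are the 3 copies with an adjusted p under 0.05, black bars are group medians and the dashed line is the median of all tested genes at 0.00.

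The nuclear core holds the flavin and the iron-sulfur clusters, and 0 of its 18 copies fell or rose by limma (0.417% and 1.83% of all tested genes). At an unadjusted p under 0.05, 9 were lower and 0 higher (8.41% and 10.2% of all tested genes). DESeq2 called 3 core copies lower (2.59% of all tested genes) and edgeR 0 (0.404%). The smallest p belonged to NDUFS3 113106083, a core subunit of the ubiquinone-binding module, at 237, 135 and 239 normalized counts in hypoxia libraries and 471, 574 and 442 in controls. The groups lay well apart, but the change of -1.32 ± 0.29 missed the threshold (adjusted p = 0.052). NDUFS8 113097514, which carries iron-sulfur clusters on the way to ubiquinone, had the lowest change of the core, with 25.99, 32.9 and 48.01 in hypoxia libraries against 137, 74.0 and 165 in controls. Its change was -1.76 ± 0.40 (adjusted p = 0.061), and without control replicate 2, the lowest control, it was -2.09 with an adjusted p of 0.018. Without each other library this copy was not called, with adjusted p from 0.105 to 0.217. A second copy of NDUFS3, 113051404, stood at 99.2, 63.5 and 102 after hypoxia against 169, 198 and 163, a change of -1.02 ± 0.28 (adjusted p = 0.11). The highest mean count in this group, not divided by length, was that of NDUFS1 113093608, which carries iron-sulfur clusters of the NADH-oxidising module. It had 1135, 738 and 1176 in hypoxia libraries and 1223, 1372 and 1620 in controls, so that hypoxia replicates 1 and 3 came close to control replicate 1, and the change was -0.49 ± 0.27 (adjusted p = 0.36).

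Of the 18 core copies 2 had a change above 0, Ndufv1 113062166 and NDUFS3 113051441. Ndufv1 113062166, a copy of the subunit that binds NADH and flavin, had 81.5, 95.6 and 96.0 in hypoxia libraries against 69.2, 82.1 and 67.1 in controls, which overlapped by a narrow margin (0.32 ± 0.27, adjusted p = 0.56). NDUFV1 113120013, the copy with more counts, was at 653, 464 and 797 against 629, 894 and 772, a change of -0.28 ± 0.27. The remaining Ndufv1 copy, 113062366, was at 66.2, 84.1 and 67.5 against 84.6, 102 and 118. Summed over its 3 copies, ndufv1 had the smallest change of the 37 subunit genes, -0.23 ± 0.22 (adjusted p = 0.58). The third NDUFS3 copy, 113051441, had 96.9, 65.8 and 88.7 after hypoxia against 58.2, 170 and 48.0 in controls (0.08 ± 0.47, adjusted p = 0.95), and its value in control replicate 2 was above every other library.

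Among accessory subunits of the peripheral arm, NDUFA7 113107837 fell by limma (0.417% of all tested genes fell). All 19 copies had a change below 0 (49.8% of all tested genes). DESeq2 called 4 of these copies lower (2.59% of all tested genes) and edgeR 0 (0.404%). NDUFA7 113107837, a copy of a small matrix-side subunit, had 150.04, 114 and 146 normalized counts in hypoxia libraries against 276, 314 and 315 in controls. No library of one group came near the other, and the mean after hypoxia was 45.2% of the control mean (-1.15 ± 0.23, adjusted p = 0.044). The call held without control replicate 2 (adjusted p = 0.049) and was lost without each of the 5 other libraries, with adjusted p from 0.101 to 0.152. Ndufs4 113049136, a copy of the subunit that stabilises the NADH-binding end and whose loss in humans causes Leigh syndrome, had 86.2, 65.8 and 120.4 against 223, 213 and 224. Its controls differed by little, and its change was -1.31 ± 0.28 (adjusted p = 0.052). The other copy, NDUFS4 113077915, had 216, 170.5 and 238 against 337, 381 and 420.4 (-0.87 ± 0.24, adjusted p = 0.11). NDUFV3 113053481 had 185, 132 and 164 against 321, 295 and 363 (-1.03 ± 0.24, adjusted p = 0.068). Ndufa12 113048264, whose product sits where the assembly factor NDUFAF2 was bound, had the most counts of this group, with 614, 353 and 622 against 745, 868 and 917 (-0.71 ± 0.28, adjusted p = 0.22). In these last 4 copies too every hypoxia library was below every control library.

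In the membrane arm Ndufc2 113115312 fell, the only copy called by limma among the 20 tested accessory copies there (0.417% of all tested genes). DESeq2 called 7 accessory copies of this arm lower (2.59% of all tested genes) and edgeR 0 (0.404%). NDUFC2 is a membrane-spanning subunit. Ndufc2 113115312 had 530.4, 346 and 636 normalized counts in hypoxia libraries against 1348, 1164 and 1498 in controls. The mean after hypoxia was 37.7% of the control mean (-1.44 ± 0.28, adjusted p = 0.034), and hypoxia replicate 2 was again the lowest library. The call held without control replicate 2 (adjusted p = 0.03) and was lost without each other library, with adjusted p from 0.067 to 0.128. Ndufa1 113113932, a small subunit needed for assembly of the membrane arm, had 217, 176 and 227 against 382, 425 and 438 (-1.01 ± 0.22, adjusted p = 0.057). NDUFA11 113111317 had 68.5, 30.6 and 55.3 against 168, 113 and 181 (-1.61 ± 0.37, adjusted p = 0.063), and without control replicate 2 its change was -1.82 with an adjusted p of 0.036. Without each other library it was not called, with adjusted p from 0.112 to 0.214. NDUFA3 113060056 had 201, 167 and 194 against 300.02, 393 and 375 (-0.92 ± 0.23, adjusted p = 0.085). The groups of these 3 copies did not overlap.

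**Figure D3:**
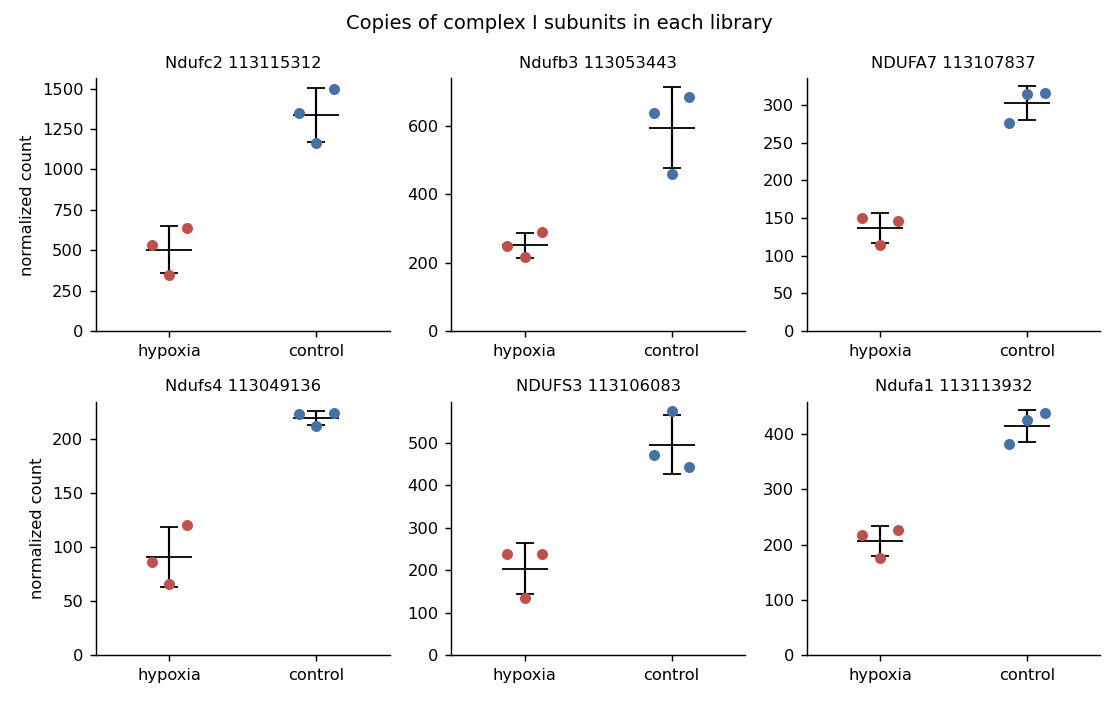
Normalized counts of 6 subunit copies in 3 hypoxia libraries (red, left) and 3 control libraries (blue, right), with mean ± SD in black. The 6 were chosen for the smallest unadjusted p of limma among tested subunit copies, a choice that favors separated groups. Ndufc2, Ndufb3 and NDUFA7 in the top row are the copies that fell. In all 6 panels every hypoxia library lies below every control library, as for 55 of all 80 tested subunit copies (12.2% of all tested genes).

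Some membrane arm copies stood apart from the general shift. Ndufa8 113109690, a copy of a subunit on the intermembrane side, had 151, 103 and 224 in hypoxia libraries against 103, 176 and 115 in controls (0.25 ± 0.35, adjusted p = 0.74). Ndufa1 113057882 had 87.4, 79.5 and 107 against 68.1, 159.5 and 55.1 (0.10 ± 0.41, adjusted p = 0.92), with the highest value in control replicate 2. NDUFA10 113098492, chosen after its values were seen, had the lowest change of all subunit copies. It had 2.36, 0 and 1.63 after hypoxia against 101, 0 and 136 in controls, so control replicate 2 was at 0 as was hypoxia replicate 2. The change was -3.54 ± 1.66 (adjusted p = 0.29), and without control replicate 2 it was -5.84 with an adjusted p of 0.0034. Without each other library this copy was not called, with adjusted p from 0.408 to 0.602. NDUFA10 113108659, the copy with more counts, had 611, 433 and 592 against 537, 954 and 542, with control replicate 2 highest.

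Beta subunits lie in the far part of the membrane arm, and 15 of their 19 tested copies had groups that did not overlap (12.2% of all tested genes were lower in this way). Limma called 1 beta copy lower (0.417% of all tested genes), DESeq2 6 (2.59%) and edgeR 0 (0.404%). Ndufb3 113053443, a copy of a small membrane-spanning subunit, fell, with 248, 217 and 289 normalized counts in hypoxia libraries against 639, 460.05 and 686 in controls. Its mean after hypoxia was 42.3% of the control mean (-1.23 ± 0.25, adjusted p = 0.042), the call held without control replicate 2 (adjusted p = 0.018), and it was lost without each other library, with adjusted p from 0.103 to 0.156. The copy with more counts, Ndufb3 113109071, had 683, 393 and 744 against 902, 928 and 808 (-0.59 ± 0.28, adjusted p = 0.31). Ndufb4 113066222 had 193, 135 and 207 against 333, 378 and 367 (-1.03 ± 0.25, adjusted p = 0.073). NDUFB2 113048212 had 135, 102 and 154 against 240, 279 and 265 (-1.01 ± 0.25, adjusted p = 0.08). NDUFB6 113044444, with the most counts of the group, had 538, 385 and 723 against 1066, 1089 and 1026 (-0.997 ± 0.27, adjusted p = 0.1). The controls of NDUFB6 agreed closely while its hypoxia libraries spread widely. NDUFB7 113097103 was the exception, at 13.0, 6.88 and 24.4 against 0, 17.3 and 1.0 (2.09 ± 1.06, adjusted p = 0.33). This copy rests on 50 reads in hypoxia libraries and 16 in controls, and without control replicate 2 its change was 3.32 with an adjusted p of 0.041, the only subunit copy that rose in that fit. Without each other library it was not called, with adjusted p from 0.431 to 0.585.

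NDUFAB1, the acyl carrier protein of mitochondria, is a subunit of complex I and also serves fatty acid synthesis and iron-sulfur cluster assembly. Its 4 copies kept close to each other, between -0.86 and -0.51. By limma 0 of 4 were called (0.417% of all tested genes fell and 1.83% rose). At an unadjusted p under 0.05, 3 of 4 were lower and 0 higher (8.41% and 10.2% of all tested genes). DESeq2 called 1 lower (2.59% of all tested genes) and edgeR 0 (0.404%). Ndufab1 113047336 had 246, 237 and 286 in hypoxia libraries against 409.9, 447 and 485 in controls (-0.80 ± 0.22, adjusted p = 0.1). NDUFAB1 113093925 had 170.1, 107 and 176 against 264, 230.02 and 318 (-0.86 ± 0.28, adjusted p = 0.16). Ndufab1 113044529 had 249, 164 and 336 against 390.1, 437 and 439 (-0.81 ± 0.29, adjusted p = 0.19). Groups did not overlap for these 3 copies.

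Of the 4 copies of NDUFA4 and NDUFA4L2, 0 were called by limma (0.417% of all tested genes fell and 1.83% rose). At an unadjusted p under 0.05, 2 were lower and 0 higher (8.41% and 10.2% of all tested genes). The count called lower was 0 by edgeR (0.404% of all tested genes) and 1 by DESeq2 (2.59%). The copy with most counts, ndufa4 113044243, had 2701, 1869 and 2871 in hypoxia libraries against 4393, 4458 and 4056 in controls (-0.82 ± 0.28, adjusted p = 0.17, or 0.043 by DESeq2). Copy 113046846 had 542, 439.6 and 567 against 877, 894 and 691 (-0.67 ± 0.23, adjusted p = 0.18). Copy 113056303 went the other way at low levels, with 24.8, 38.2 and 1.63 against 2.198, 4.62 and 0 (2.40 ± 1.098, adjusted p = 0.28), and its groups overlapped. Ndufa4l2 113097898, whose mammalian counterpart is a target of hypoxia-inducible factor that lowers complex I activity, had 0, 4.59 and 0 in hypoxia libraries against 5.49, 1.16 and 3.0 in controls. These are a few reads per library, and the change of -1.11 ± 0.89 was not called (adjusted p = 0.54).

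For the assembly factors, all 14 copies were tested, and by limma 0 fell and 0 rose (0.417% and 1.83% of all tested genes). By the same test 5 were lower and 0 higher at an unadjusted p under 0.05 (8.41% and 10.2% of all tested genes). The edgeR and DESeq2 fits also called 0 (0.404% and 2.59% of all tested genes fell, 1.51% and 4.07% rose). The median change was -0.51, 11 of 14 had a change below 0 (49.8% of all tested genes), and 8 of 14 had every hypoxia library below every control library (12.2% of all tested genes). Whether this median differs from that of subunits was not tested. NDUFAF1 113056722, a pseudogene in the reference, had 0 in each hypoxia library against 8.79, 3.47 and 3.0 in controls. With a floor of 3 reads over the group it was at least 5.69-fold lower, from 14 control reads in all, and it was not called (adjusted p = 0.11). The protein-coding copy of this factor, which helps to build the membrane arm, was NDUFAF1 113112594, at 69.7, 47.4 and 57.8 against 78.0, 124 and 105 (-0.79 ± 0.31, adjusted p = 0.22). The methyltransferase ndufaf7 113121273 had 63.8, 44.3 and 58.6 against 95.6, 91.3 and 124 (-0.89 ± 0.30, adjusted p = 0.17). NDUFAF6 113115930 had 39.0, 20.6 and 30.1 against 42.9, 64.7 and 82.1 (-1.05 ± 0.40, adjusted p = 0.21). In each of these 4 copies the groups did not overlap, in the lower direction, and 3 of the 4 were named for their small p.

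In ndufaf3 113097729 and the copies of ndufaf5 the groups overlapped. The copy with most counts, ndufaf3 113097729, which acts early on the ubiquinone-binding part, had 286, 242 and 310.04 in hypoxia libraries against 198, 398 and 144 in controls (0.30 ± 0.36, adjusted p = 0.69). Control replicate 2 was its highest library, and the remaining controls its lowest. The hydroxylase ndufaf5, which modifies NDUFS7, had 94.5, 71.1 and 102 against 64.8, 162 and 79.1 for copy 113044002 (-0.09 ± 0.38), with control replicate 2 again highest. Copy 113044101 of ndufaf5 had 14.2, 1.53 and 2.44 against 5.49, 2.31 and 5.005 (0.01 ± 0.81, adjusted p = 0.996). The remaining 7 assembly factor copies lay between -1.39 for NDUFAF4 113121281 and 0.03 for Ndufaf2 113069848. The latter is a non-coding RNA in the reference, with 7 reads in hypoxia libraries and 6 in controls, and its groups overlapped. In 4 of the remaining 7 the groups did not overlap, in the lower direction (12.2% of all tested genes).

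Control replicate 2 was above 1.5 times both other controls for 15 of 80 subunit copies (18.8%), near the 16.7% of all tested genes. Control replicates 1 and 3 were so for 1 and 2 copies, against 15.5% and 11.2% of all tested genes. By the same factor, control replicate 2 was below both other controls for 4 of the 80 copies (5%), against 21.1% of all tested genes. Control replicates 1 and 3 were below in this way for 5 and 0 copies, against 9.14% and 10.9%. Leaving out control replicate 2 moved the count of fallen subunit copies to 6 (2.28% of all tested genes fell in that fit) and that of risen copies to 1 (3.48% of all tested genes). The 3 added falls were NDUFS8 113097514, NDUFA11 113111317 and NDUFA10 113098492. Leaving out any other library left 0 calls among subunits. In those fits 36 to 57 genes of the whole table fell and 285 to 478 rose, of 40774 to 41278 tested.

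Because reads of near-identical copies may have been split in ways the sources used here do not give, the copies of each gene were also summed in each library, and limma was run over all 13544 tested gene names. All 37 subunit genes had a change below 0 (52.6% of all names did), and 32 of 37 had every hypoxia sum below every control sum, against 15.7% of all names. Of the 37, 3 fell (0.613% of all names) and 0 rose (2.21% of all names). At an unadjusted p under 0.05, 29 of the 37 were lower and 0 higher, against 10.5% and 10.8% of all names. On summed reads, DESeq2 called 18 subunit genes lower (3.79% of all names) and edgeR 1 (0.473%). The 3 that fell by limma were ndufa7, at 183, 141 and 166 in hypoxia libraries against 312, 357 and 345 in controls (-1.05 ± 0.20, adjusted p = 0.04), ndufc2 and ndufs4. For ndufc2 the sums were 775, 517 and 915 against 1780, 1465 and 1848 (-1.24 ± 0.25, adjusted p = 0.043). For ndufs4 they were 302, 236 and 359 against 560.5, 594 and 645 (-1.02 ± 0.21, adjusted p = 0.049). After hypoxia the mean sum was 48.3% of the control mean for ndufa7, 43.3% for ndufc2 and 49.9% for ndufs4, and no group overlapped. With 1 library left out, ndufc2 kept its call only without control replicate 2 (adjusted p = 0.043), and its adjusted p reached 0.139. The sums of ndufa7 and ndufs4 lost their call in each of the 6 such fits, with adjusted p up to 0.13 and 0.153. By sums, ndufb3 was no longer called (-0.81 ± 0.23, adjusted p = 0.1).

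**Figure D4:**
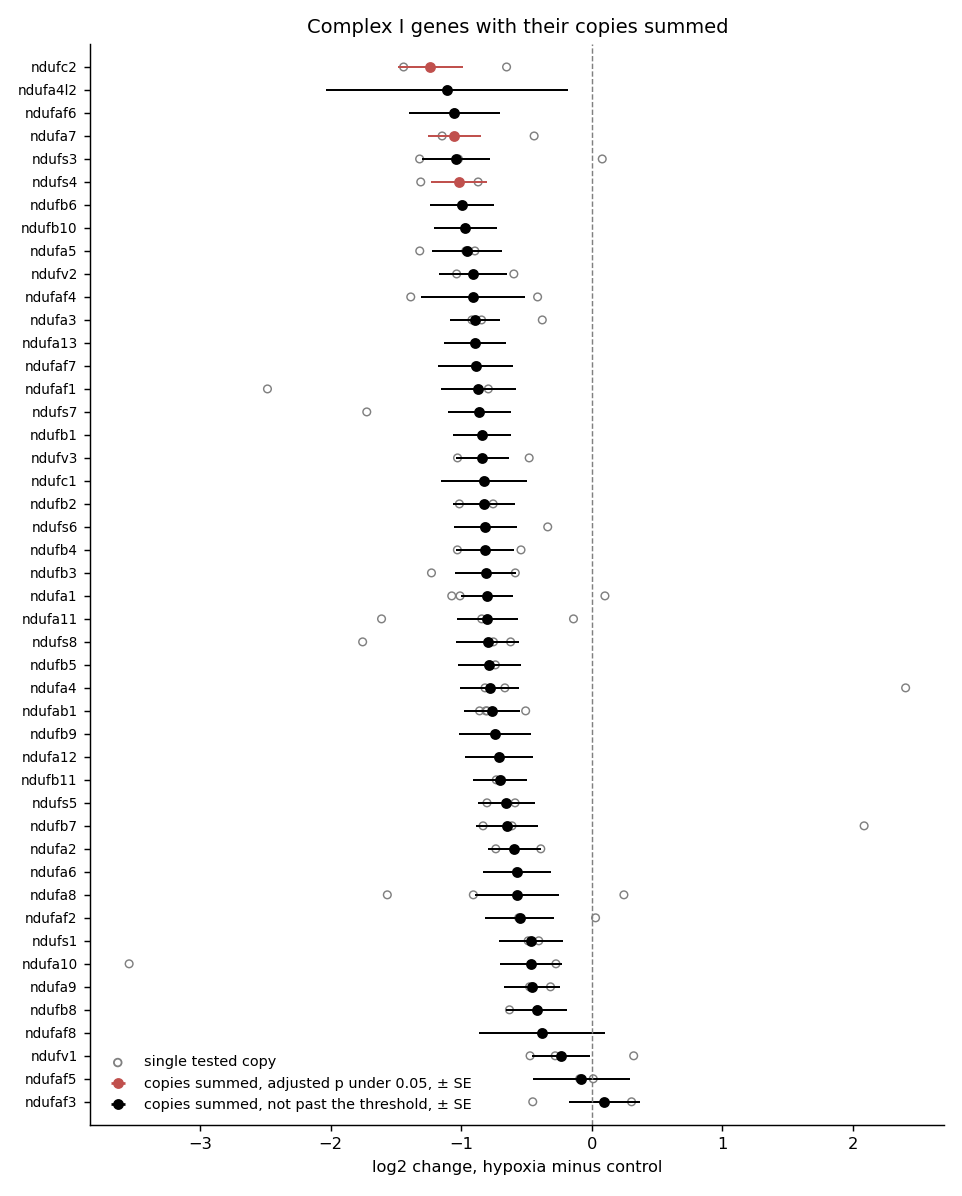
Log2 change (hypoxia minus control) of 46 gene names with their copies summed (filled, ± SE) and of each tested copy (open). All 36 subunit names shown lie below 0, the 3 red ones have an adjusted p under 0.05, and ndufaf3 is the only name shown above 0.

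Subunit genes whose sums overlapped between groups included ndufs1, ndufb8, ndufa8 and ndufv1, with changes between -0.57 and -0.23. Of these, ndufs1 and ndufv1 belong to the nuclear core. Among the 8 assembly factor genes 5 had sums that did not overlap, in the lower direction (15.7% of all names), and 7 were below 0 (52.6%). Of the 8, 0 were called by limma (0.613% of all names fell and 2.21% rose), with 3 lower at an unadjusted p under 0.05 (10.5%). The summed ndufaf3 was the single name of all 47 with a change above 0, at 338, 309.7 and 374 in hypoxia libraries against 271, 474 and 249 in controls (0.10 ± 0.27, adjusted p = 0.87).

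Of 29 subunit genes with several tested copies, 24 had all copies below 0, against 25.6% of all such gene names. In 10 of the 29 all copies had groups that did not overlap, in the lower direction, against 3.17% of all such names. In the other 5 genes, ndufs3, ndufv1, ndufa1, ndufa8 and ndufb7, a single copy had a change above 0. To test a shift between copies, each copy was set against the summed other copies of its name, over 33338 rows of the whole table, a test added after the data were seen. Of 87 member copies with a partner 0 were called (0.633% of all rows were), and 16 had an unadjusted p under 0.05 (15.2% of all rows). Without control replicate 2 the count called was 9 of 87 (6.12% of all rows). These 87 copies carry 36 names, and for a name with a single pair of copies both rows hold the same change with its sign reversed. Such a shift can enter the counts through both copies, in the whole table as well.

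Among the member copies, Ndufa8 had the smallest p of this test. Copy 113109690 supplied 45.7%, 47.5% and 45.8% of the counts of this gene in hypoxia libraries against 25.7%, 28.0% and 25.1% in controls. By counting error alone (95% Wilson intervals), the hypoxia shares lay above 39.98% and the control shares below 31.97%. The shares agreed within each group to a few percentage points, and the change of the copy over its partners was 1.27 ± 0.24 on the log2 scale (adjusted p = 0.064, or 0.026 without control replicate 2 and up to 0.231 without another library). For Ndufc2, copy 113115312, the one that fell, supplied 68.4%, 67.0% and 69.6% against 75.7%, 79.5% and 81.1% (-0.79 ± 0.20, adjusted p = 0.14). For NDUFS3, copy 113051441 supplied 22.3%, 24.9% and 20.6% against 8.33%, 18.04% and 7.35% (1.32 ± 0.42, adjusted p = 0.22). For Ndufa1, copy 113057882 supplied 25.5%, 27.8% and 29.8% against 13.6%, 24.2% and 9.73% (1.12 ± 0.41, adjusted p = 0.27). In NDUFS3 and Ndufa1 the share in control replicate 2 was nearer to the hypoxia libraries than to the other controls, and without that library the adjusted p was 0.021 and 0.037. Without another library the adjusted p was up to 0.453 for NDUFS3 and up to 0.524 for Ndufa1.

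**Figure D5:**
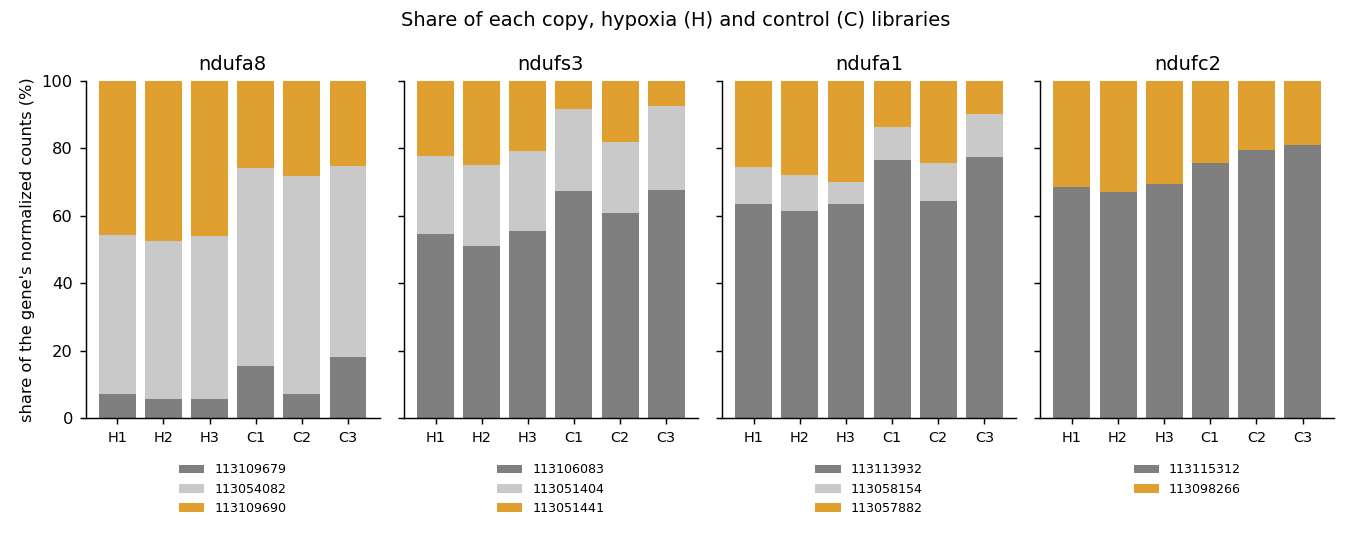
Share of each copy in the summed normalized counts of ndufa8, ndufs3, ndufa1 and ndufc2, in percent, for hypoxia libraries H1 to H3 and control libraries C1 to C3. The orange copy of ndufa8 holds 45.7% to 47.5% in hypoxia libraries and 25.1% to 28.0% in controls.

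By the goldfish reference, 95 of the 101 rows are protein-coding genes, 3 are pseudogenes and 2 are non-coding RNAs, and 1 row is a locus of the authors' own. The 3 rows that were not tested for lack of reads were the pseudogenes NDUFA10 113053319 and NDUFB11 113077662 and the authors' locus named NDUFB1. The other row named NDUFB1, 113120606, is listed as non-coding but had 326, 232 and 293 in hypoxia libraries against 445, 605 and 470.4 in controls (-0.84 ± 0.24, adjusted p = 0.13), a change like that of protein-coding copies.

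Complex I genes outside the rule were read from separate lists. Assembly proteins without an NDUFAF name had a median change of -0.59 over 26 tested rows, with 22 below 0, against 49.8% of all tested genes. Groups did not overlap in the lower direction for 12 rows and in the higher for 0, against 12.2% and 12.4% of all tested genes. In this list limma called 0 (0.417% of all tested genes fell and 1.83% rose). At an unadjusted p under 0.05, 10 were lower and 0 higher, against 8.41% and 10.2%. DESeq2 and edgeR also called 0 (2.59% and 0.404% of all tested genes fell, 4.07% and 1.51% rose). TMEM70 113117774, needed for assembly of ATP synthase and complex I, had 57.9, 50.5 and 96.0 in hypoxia libraries against 104, 147 and 151 (-1.004 ± 0.33, adjusted p = 0.16). The import protein chchd4-a 113094630, which oxidises small intermembrane proteins, had 113, 88.7 and 94.4 against 135, 210.4 and 186 (-0.82 ± 0.27, adjusted p = 0.16). The ND transcripts of the mitochondrial genome summed to 626, 377 and 935 in hypoxia libraries against 2995, 3473 and 2864 in controls. Of 6 tested, 5 fell (0.417% of all tested genes), with a median of -3.16, as for MT-ND4 808421 at 88.6, 48.9 and 93.6 against 651, 690.1 and 704. The difference between nuclear and mitochondrial genes was not tested.

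Other routes of electrons to ubiquinone, such as succinate dehydrogenase, had a median change of -0.19 over 21 tested rows. Limma called 0 of them (0.417% of all tested genes fell and 1.83% rose). At an unadjusted p under 0.05, 5 were lower and 2 higher (8.41% and 10.2% of all tested genes). DESeq2 called 2 lower and 2 higher there (2.59% and 4.07% of all tested genes), and edgeR 0. The smallest p there belonged to sulfide quinone oxidoreductase, which feeds electrons from sulfide into ubiquinone. SQOR 113043523 had 72.1, 120.8 and 92.8 in hypoxia libraries against 21.98, 16.2 and 39.04 in controls (1.91 ± 0.41, adjusted p = 0.052), and SQOR 113043524 had 95.7, 119 and 155 against 6.59, 21.96 and 47.04 (2.58 ± 0.61, adjusted p = 0.07). Neither copy had a control library that reached any hypoxia library. Copy 113043524 was called in 1 of the 6 fits that left out a library (adjusted p = 0.038).

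Among regulators of mitochondrial biogenesis, 2 of 29 tested rows rose (1.83% of all tested genes) and 0 fell (0.417%), with a list median of 0.22. In this list 18 rows had a change above 0 and 11 below. DESeq2 called 4 higher and 1 lower (4.07% and 2.59% of all tested genes). The edgeR fit called 1 higher and 0 lower (1.51% and 0.404%). PPARGC1A 113106421, which encodes the coactivator PGC-1α that turns on nuclear genes of respiration, had 762, 242 and 475 in hypoxia libraries against 47.3, 27.7 and 19.02 in controls (3.88 ± 0.47, adjusted p = 0.0039), and it kept its call in all 6 fits that left out 1 library. Ppargc1b 113114281, a related coactivator, had 591, 331 and 491 against 173, 192 and 205 (1.27 ± 0.27, adjusted p = 0.049), and it kept its call in 1 of the 6 fits, with adjusted p up to 0.187. Other listed regulators were not called by limma, among them TFAM 113111943, which packs mitochondrial DNA and takes part in its transcription, at 35.4, 51.2 and 53.7 against 79.1, 86.7 and 74.1 (-0.78 ± 0.31, adjusted p = 0.23).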

How the data were processed

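The authors deposited a table of normalized signal per gene for 6 libraries. The submitters' processing notes name TopHat2 2.1.1 and Bowtie2 2.2.8, while counter, build and filters are not given. The deposited values, although named FPKM, were counts of reads over a size factor. Taken as multiples of the smallest step in a library, 100% of the 47544 values were whole within 0.01 read. For control replicate 3 that step was so close to 1 that it was read from the decimals. The authors' log2 fold change and p-value columns come from a test that is not named in the sources.

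The main test was limma 3.58.1 (R 4.3.3) with a mean-variance trend on log2 of the normalized count plus 1, for genes with a mean of at least 1, without covariate or replicate block. The pseudocount lowers the fold of low genes. Alternatives were DESeq2 1.42.0 and edgeR 4.0.16 run on these recovered reads, other pseudocounts, filters and scalings, a replicate block and leaving out each library. The scripts were tested on simulated counts with known changes. Copies were named where called, and otherwise by the 3 smallest p and the highest mean per role, or by a change above 0 with a mean of at least 5. Outside lists were named by call or the 2 smallest p, and further copies, ndufa4l2, TFAM and MT-ND4 among them, were chosen after their values were seen. Members and lists were chosen with earlier results of these data known. Names come from best-matching proteins of other species per the file headers, and 100 of 101 rows matched the gene table of the goldfish assembly ASM336829v1. The floor and the intervals allow for counting error alone. Of the genes counted, 1 is not reported by name here.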

Additional observations from a re-analysis of the deposited data

How the results depend on the processing

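The direction of the shift held under every alternative run: the median change of subunit copies lay between -0.83 and -0.74 under other tools, scalings, filters and pseudocounts and between -0.85 and -0.55 with 1 library left out, and that of assembly factor copies between -0.71 and -0.48 and between -0.79 and -0.48. The count of called subunit copies did not hold. It was 3, against 21 with DESeq2, 7 under quantile normalization, and 0 with edgeR, with limma without trend and with the replicate block. With 1 library left out it ran from 0 to 6 fallen and from 0 to 1 risen. The count of fallen gene sums was 3, against 18 with DESeq2, 1 with edgeR, 0 without trend and 0 with the replicate block, and 0 to 1 with 1 library left out. The labels do not say whether the replicate numbers pair the libraries. Deviations of same-numbered libraries from their group means had correlations of -0.07, -0.19 and -0.03. With so few libraries these values cannot settle whether the libraries were paired. Copy share changes numbered 0, against 1 with a pseudocount of 5, and 0 to 9 with 1 library left out. Copies near 0 changed sign: ndufaf5 113044101 was at -0.0026 under TMM scaling, -0.028 with a pseudocount of 0.5 and -0.060 under quantile normalization, NDUFS3 113051441 at -0.14 with DESeq2 and -0.16 with edgeR, and Ndufa1 113057882 at -0.045 and -0.069 with the same tools. With 1 library left out, ndufaf5 113044101 ran from -0.78 to 0.52, NDUFS3 113051441 from -0.27 to 0.63, Ndufa1 113057882 from -0.20 to 0.56, ndufaf3 113097729 from -0.015 to 0.71 and Ndufa8 113109690 from -0.033 to 0.52. The cause was not tested. Depth limits copies with few reads, such as Ndufa4l2 113097898, with 6 reads in hypoxia libraries and 9 in controls.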
